A study of Rattus norvegicus with 232 samples.

Results

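Zbtb16 is the gene behind the Lx (luxate) mutation that gives the rat strain BN-Lx/Cub its name. It was followed here by its symbol through the processed brain tables of the Hybrid Rat Diversity Panel (HRDP), and in the reconstructed annotation by its exons. The gene was 1 of 20859 genes in the RefSeq gene table of processing version v7.1, and its 3 RefSeq transcripts were 3 of 45918. No line of the v5 annotation carried the symbol Zbtb16, so the stretch was located by 5 internal exons of 168, 171, 87, 98 and 1357 bases that its v7.1 transcripts share. These lengths stood in order in 8 transcripts of v5, and the stretch ran from 52983290 to 53147945 on chromosome 8 of rn6, minus strand. It held 16 of the 99376 reconstructed features of v5, of which 13 carried the symbol of the neighbouring gene Nnmt and 3 carried none. On the strand of Zbtb16 lay 14 of the 16, and 2, PRN6.5G0119332 and PRN6.5G0119372, lay on the plus strand. In v7.1, 15 features were named Zbtb16 and 13 of them had values.

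The study sequenced rRNA-depleted total RNA from whole brain of untreated rats of inbred strains, labelled male where the labels give a sex and with no age in the labels. The v7.1 gene table held 214 libraries from 197 animals of 74 strains: 25 classic inbred strains, 20 HXB and 10 BXH recombinant inbred strains, and 12 LEXF and 7 FXLE recombinant inbred strains. HXB and BXH are reciprocal crosses of SHR/OlaIpcv, the spontaneously hypertensive rat, and BN-Lx/Cub. BN/NHsdMcwi is the Brown Norway strain without Lx, and no group was treated. Values are levels read as log2; for v5 the authors' transformation is stated and shrinks the differences of low features, and for v7.1 the scale is an assumption. Repeat libraries of 1 animal were averaged. The sequencing depth of the libraries is unknown, because the tables hold no counts. Each strain is 1 genotype, and BN-Lx/Cub may differ from BN/NHsdMcwi at other loci, so that effects of Lx and of the rest of the genome cannot be told apart in their contrast. According to the paper, the HXB/BXH strains and their progenitors were kept in Prague, and their brain tissue was shipped in liquid nitrogen. Brains of its other inbred strains, obtained from vendors, were put in RNAlater. Source and tissue handling thus moved with strain, and for BN/NHsdMcwi the paper does not describe them. In whole tissue, fewer cells of a type and less RNA per cell cannot be told apart either. In the gene table BN-Lx/Cub and BN/NHsdMcwi had 3 animals each and SHR/OlaIpcv had 2, and the reconstructed tables held 3 (v5) or 4 (v7.1) of SHR/OlaIpcv. Markers of neurons, astrocytes, oligodendrocytes and microglia were all measured, at mean levels between 8.84 and 15.8 in the animals of the 3 strains.

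As background, Zbtb16 encodes PLZF, a repressor with a BTB domain, which pairs proteins and recruits corepressors and histone deacetylases, and a row of zinc fingers that bind DNA. It patterns the limb skeleton and keeps germline stem cells in an undifferentiated state, and in many cells its transcription is raised by glucocorticoids. The Lx mutation has been ascribed to a deletion within an intron of Zbtb16 and causes extra or malformed digits of the hind limbs.

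Zbtb16 was a well expressed gene in the brain, with a mean level of 10.42 over animals, above that of 75.4% of the genes. Its strain means ran over 0.76 on the log2 scale, from 10.06 in SHR/OlaIpcv to 10.82 in BXH10/Cub. Next to the bottom were HXB31/Ipcv at 10.10 and LEXF9/Stm, a strain with 1 animal, at 10.12. BXH12/Cub at 10.81, COP/CrCrl at 10.69, LEXF5/Stm at 10.68 and BN/NHsdMcwi at 10.65 were near the top. BN-Lx/Cub was the 24th strain from the bottom, at 10.34. The SD between animals of 1 strain was 0.15, and each of the 73 gaps between neighbours in the order was smaller than that, the widest being 0.11. The panel medians were close to each other, at 10.41 in the inbred strains, 10.38 in HXB, 10.37 in BXH, 10.45 in LEXF and 10.49 in FXLE.

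**Figure D1:**
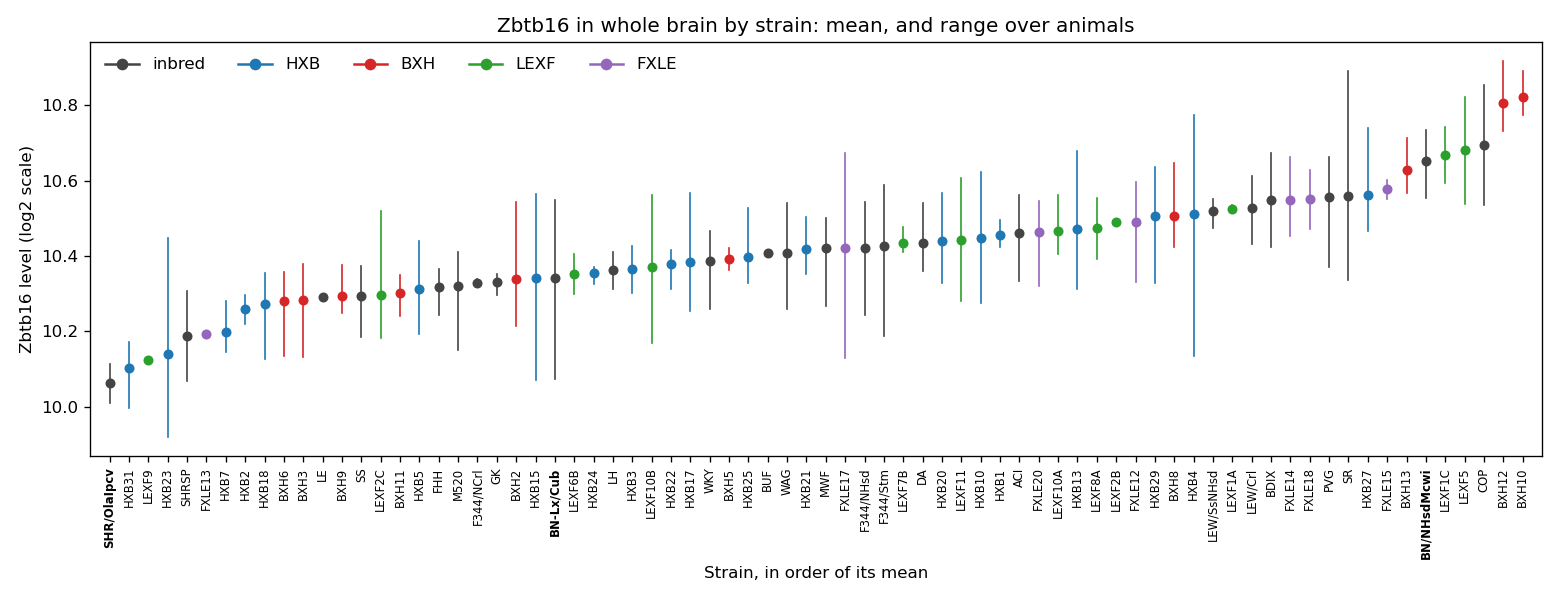
Level of Zbtb16 (y axis, log2 scale) in whole brain of 74 strains (x axis, in order of the mean). Points are strain means, lines run from the lowest to the highest animal, and colours mark the panel; SHR/OlaIpcv is lowest at 10.06, BXH10/Cub highest at 10.82 and BN-Lx/Cub lies at 10.34.

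The first question was whether the strain with Lx differs in Zbtb16 from the strain of related background and from the other parent of the RI strains. The 3 BN-Lx/Cub animals had levels of 10.07, 10.55 and 10.40. The 3 BN/NHsdMcwi animals had 10.55, 10.67 and 10.73. The 2 SHR/OlaIpcv animals had 10.11, over 12 libraries between 9.99 and 10.35, and 10.01, over 6 libraries between 9.93 and 10.06. BN/NHsdMcwi thus lay above both other strains, with the highest BN-Lx/Cub animal (10.549) just under the lowest BN/NHsdMcwi animal (10.554), while BN-Lx/Cub and SHR/OlaIpcv overlapped. With so few animals, 18.9% of all genes did not overlap between BN-Lx/Cub and BN/NHsdMcwi, and 40.5% did not between BN/NHsdMcwi and SHR/OlaIpcv.

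BN/NHsdMcwi exceeded SHR/OlaIpcv by 0.59 ± 0.13 (SE of the limma fit, 95% interval 0.33 to 0.85), a fold of 1.51, with an adjusted p of 0.00138. The adjustment is Benjamini-Hochberg over all genes, and a gene past 5% is called; 3.44% of the genes were called in this contrast. BN-Lx/Cub was 0.31 ± 0.12 below BN/NHsdMcwi (difference -0.31, interval -0.54 to -0.08), which did not pass the limma test over all genes (adjusted p = 0.198), in a contrast where 0.278% of the genes were called. BN-Lx/Cub was 0.28 ± 0.13 above SHR/OlaIpcv (interval 0.02 to 0.54), which did not pass the limma test either (adjusted p = 0.221), with 4.51% of the genes called. Neither of these misses shows that the strains have the same level.

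Sequencing batch moved with strain. BN-Lx/Cub and SHR/OlaIpcv shared batches 3, 4 and 6, in which their differences were 0.15, 0.30 and 0.23. These are not independent, since the SHR/OlaIpcv libraries in all 3 batches came from animal 1, and the BN-Lx/Cub libraries of batches 4 and 6 both came from animal 3. BN/NHsdMcwi and SHR/OlaIpcv shared batches 16 and 17, with differences of 0.53 and 0.77, and BN-Lx/Cub and BN/NHsdMcwi shared none. With batch as a covariate in the limma fit the BN-Lx/Cub minus BN/NHsdMcwi difference became -0.56 (adjusted p = 0.00862), in a fit that called 39.9% of all genes for that contrast. The same fit moved BN-Lx/Cub minus SHR/OlaIpcv from 0.28 to 0.06 (limma adjusted p = 0.868). The call of BN/NHsdMcwi against SHR/OlaIpcv was lost when SHR/OlaIpcv animal 4 was left out (difference 0.54, adjusted p = 0.102 in limma), which leaves 1 SHR/OlaIpcv animal that is assumed to vary like the other strains. It was also lost with only the 3 strains in the fit (difference 0.59, limma adjusted p = 0.0845). Erythroid markers moved with these contrasts: the mean level of Alas2, Hbb and Hba-a1 was 11.9 to 12.1 in BN-Lx/Cub, 11.4 to 12.1 in BN/NHsdMcwi and 13.3 in both SHR/OlaIpcv animals, with 3 of 3 markers called lower than SHR/OlaIpcv in each BN strain. Their part in the Zbtb16 differences was not tested.

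**Figure D2:**
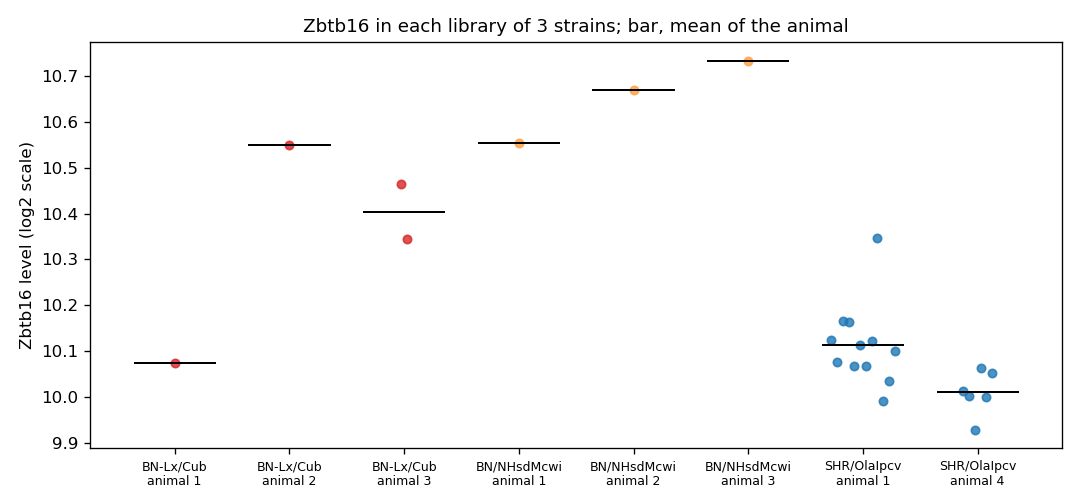
Level of Zbtb16 (y axis, log2 scale) in each library (points) of each animal (x axis) of BN-Lx/Cub, BN/NHsdMcwi and SHR/OlaIpcv, with a bar at the mean of the animal. The BN/NHsdMcwi animals lie between 10.55 and 10.73, the SHR/OlaIpcv animals at 10.11 and 10.01, and the BN-Lx/Cub animals spread from 10.07 to 10.55.

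Among the RI strains of the BN-Lx/Cub by SHR/OlaIpcv cross, strain accounted for a large share of the variation in Zbtb16. R2, the share of the variance among animals that lies between strains, was 0.660 over 88 animals of 30 strains, above the R2 of 94.3% of genes, whose median was 0.409. The strain effect was called (limma F-test, adjusted p = 6.41e-05), as it was for 19.1% of the genes. Over the 69 strains with 2 or more animals R2 was 0.602 (adjusted p = 5.61e-06 in limma, 36.8% of genes called). Within the inbred strains it was 0.555 (limma adjusted p = 0.0434, 18.6% called). That call was lost under all alternatives run except centring on library medians: with batch as a covariate (limma adjusted p = 0.0835), with the replicate number as a block (0.124), in the v6 Ensembl, v5 Ensembl and v7.1 reconstructed tables (0.111, 0.0505 and 0.0535), and without replicate 1, 2 or 3 (0.239, 0.469 and 0.182). Within FXLE and LEXF it was 0.413 and not called (adjusted p = 0.531, 5% called). The HXB/BXH call was lost without replicate 2 or 3 (limma adjusted p of 0.0781 and 0.0518, R2 0.690 and 0.729). It held at a lower R2 in the v6 and v5 Ensembl tables (0.507 and 0.539, limma adjusted p of 0.0339 and 0.0129).

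The HXB means averaged 10.37 ± 0.12 (SD, n = 20) and ran from 10.10 in HXB31/Ipcv to 10.56 in HXB27/Ipcv. The BXH means averaged 10.47 ± 0.21 (SD, n = 10) and ran from 10.28 in BXH6/Cub to 10.82, with BXH10/Cub, BXH12/Cub and BXH13/Cub (10.63) as the upper end. The difference of HXB minus BXH was -0.10 (two-sided permutation test over strains, p = 0.116). It became -0.18 with batch as a covariate (permutation p = 0.00592). Most BXH strains had libraries in a batch that no HXB strain had, so an error in that batch term moves these strains together. The batch-adjusted means are thus not exchangeable as the permutation assumes, and this p-value is unreliable. The 30 strain means were best described by 1 cluster in a normal mixture.

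The 3 RefSeq transcripts of Zbtb16 spread widely between libraries of 1 animal, and none was called between the 3 strains, except with batch as a covariate. NM_001013181.1 had values of 5.16, 7.43 and 6.15 in the BN-Lx/Cub animals, 6.83, 7.42 and 8.48 in BN/NHsdMcwi and 5.95 and 6.23 in SHR/OlaIpcv. XM_017595705.2 ranged from -0.11 to 8.94 among the BN/NHsdMcwi animals alone, and XM_017595707.2 from 5.48 to 7.95 over the 3 strains. The libraries of a single SHR/OlaIpcv animal ran from 2.97 to 7.03 for NM_001013181.1 and from 3.40 to 10.23 for XM_017595705.2. The SD between repeat libraries of 1 animal was 1.14, 1.58 and 1.53 for the 3 transcripts in the order above, against 0.08 for the gene. None of the 9 contrasts was called by limma over all transcripts, where 0.0632%, 0.791% and 0.893% of the transcripts were called in BN-Lx/Cub minus BN/NHsdMcwi, BN-Lx/Cub minus SHR/OlaIpcv and BN/NHsdMcwi minus SHR/OlaIpcv. At an unadjusted p under 0.05 none of the 9 passed either, the lowest p of the limma fit being 0.109. With batch as a covariate, NM_001013181.1 was called lower in BN-Lx/Cub than in BN/NHsdMcwi (difference -4.66, limma adjusted p = 0.00345), and its difference in BN-Lx/Cub minus SHR/OlaIpcv turned from 0.16 to -3.49 (limma adjusted p = 0.119). BN-Lx/Cub and BN/NHsdMcwi share no batch, and the share of all transcripts called in that fit was not computed. Among genes, the fit with batch called 39.9% for that contrast. The strain effect of the 3 transcripts in HXB and BXH was not called (adjusted p of 0.860, 0.130 and 0.170 in limma), with 6.84% of transcripts called. Transcripts of 1 gene share exons and reads, so their split by the authors' quantification is uncertain.

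The reconstructed features of the v5 table, which covered 135 animals of 45 strains without BN/NHsdMcwi, resolved the gene further. PRN6.5G0119276, with 12 transcripts, is the feature that spans most of the stretch and holds the shared internal exons. Of the 16 features, 1 was called lower in BN-Lx/Cub than in SHR/OlaIpcv and none higher, where 2.1% of all features were called. At an unadjusted p under 0.05, PRN6.5G0119327 was lower in BN-Lx/Cub too (difference -0.83, p = 0.0311 in limma), and none was higher. The other 15 had differences between -0.89 and 0.32 and adjusted p of at least 0.448 in limma. PRN6.5G0119276 itself was at 10.74 ± 0.32 in BN-Lx/Cub and 10.57 ± 0.26 in SHR/OlaIpcv (SD, n = 3 each, difference 0.16, limma adjusted p = 0.882). The feature called was PRN6.5G0119331.

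**Figure D3:**
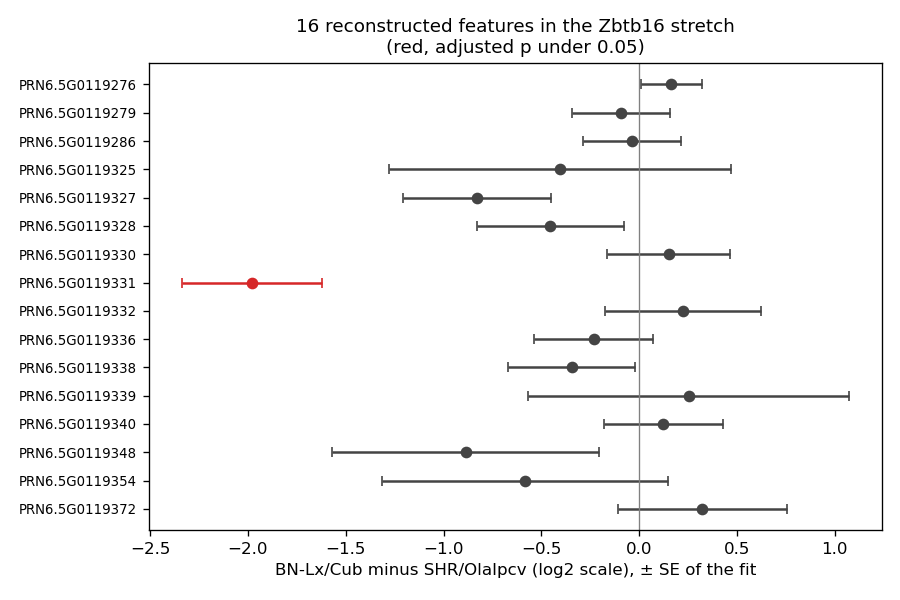
Difference of BN-Lx/Cub minus SHR/OlaIpcv (x axis, log2 scale, bars are the SE of the limma fit) for the 16 reconstructed v5 features in the Zbtb16 stretch (y axis). PRN6.5G0119331, in red, is lower by 1.98 in BN-Lx/Cub, and the other 15 lie between -0.89 and 0.32.

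PRN6.5G0119331 is a single transcript on the minus strand of chromosome 8 in rn6, from 53068984 to 53146640, with 4 exons of 2266, 3468, 6835 and 239 bases, counted from the lowest coordinate. The exon of 6835 bases contains the shared exon of 1357 bases with the intron sequence next to it, so the feature shares reads with others of the gene. Its level was 4.84, 5.93 and 5.93 in the BN-Lx/Cub animals and 7.56, 6.85 and 8.22 in the SHR/OlaIpcv animals. The groups did not overlap, and the lowest SHR/OlaIpcv animal was above the highest BN-Lx/Cub animal. With so few animals this alone says little, and the share of all v5 features without overlap was not computed. BN-Lx/Cub was lower by 1.98 ± 0.36 (difference -1.98), a 3.95-fold lower level on this scale (limma adjusted p = 5.2e-05). The BN-Lx/Cub libraries of v5 came from batches 3, 3 and 4 and those of SHR/OlaIpcv from batches 6, 1 and 6 by label. No value within a batch can thus be given, although 1 sample title of SHR/OlaIpcv animal 3 gives batch 4. With batch as a covariate, or with any 1 animal left out, the feature remained called, at differences between -2.33 and -1.62.

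The second exon of PRN6.5G0119331 spans a block of sequence that other transcripts of the gene do not contain. The block runs from 53132882 to 53135845 on chromosome 8 of rn6 and is 2964 bases long. It lies within the intron of 67258 bases between the shared exons of 98 and 1357 bases. In v5 the block was exactly a gap between exons in 3 transcripts, which belong to PRN6.5G0119276 and PRN6.5G0119325. It lay within a longer gap in 13 others and was covered by 1, that of PRN6.5G0119331. The reads of v5 were aligned to strain genomes containing only SNPs. A gap in the annotation therefore does not tell splicing from sequence that a strain lacks. Which of these applies to the block, and its part in the lower level of PRN6.5G0119331 in BN-Lx/Cub, was not tested. In the v7.1 annotation, whose build is not given in the sources used here, a block of the same length ran from 49163130 to 49166093. It was exactly a gap between exons in 3 transcripts of PRN7.71G0138870 and lay within a longer gap in 13 others. It was covered by 2, those of PRN7.71G0138914 and PRN7.71G0138916. The block was found after the values of the features had been seen.

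PRN6.5G0119331 differed among the RI strains as well. Its strain means ran from 5.29 to 8.12 in HXB and BXH, and R2 was 0.879 (limma F-test, adjusted p = 1.46e-16). Of the other 15 features, 11 also had a called strain effect, with 10.4% of all features called, and their R2 was at most 0.744. The 11 include PRN6.5G0119332, which is on the plus strand and of low level (0.89 in BN-Lx/Cub and 0.67 in SHR/OlaIpcv). The count of 12 with a called strain effect among the 16 fell to 8, 5 and 8 without replicate 1, 2 or 3, and PRN6.5G0119276 was not called without replicate 2 or 3 (limma adjusted p of 0.124 and 0.0965). The strain means of PRN6.5G0119331 were best described by 2 clusters, and 14.9% of all v5 features had 2 or 3. Of the other 15 features, 3 had more than 1 cluster too: PRN6.5G0119276 and PRN6.5G0119325 with 2 and PRN6.5G0119338 with 3. Where a further cluster had to improve the BIC, the criterion of fit, by more than 6, PRN6.5G0119331 had 1 cluster. Among the inbred strains, BN-Lx/Cub had the lowest mean (5.57), and the other 14 lay between 6.79 in SS/JrHsd and 8.00 in COP/CrCrl. No animal of these 14 strains was under 6.13, and no BN-Lx/Cub animal was above 5.93.

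PRN6.5G0119331 was also taken relative to the mean of PRN6.5G0119330 and PRN6.5G0119336, 2 features that hold the exon of 1357 bases and intron sequence too, but no base of the block. This measure was set up after the values had been seen and is given as a description, without a test. On it, BN-Lx/Cub was at -1.20 ± 0.31 and SHR/OlaIpcv at 0.74 ± 0.61 (SD, n = 3 each), without overlap. The difference was -1.94. The 30 RI strains fell into a group of 19 with means from -1.72 to -1.06, which includes the level of BN-Lx/Cub, and a group of 11 with means from 0.28 to 0.67, near that of SHR/OlaIpcv. The space between the groups, 1.34, compares with 0.20 for the next widest space between strains. All 57 animals of the lower strains were at -0.51 or less, and all 33 animals of the upper strains at -0.16 or more.

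The reciprocal panels fell unevenly into the 2 groups. The lower group held 9 HXB strains and all 10 BXH strains, and the upper group held 11 HXB strains and no BXH strain. The lowest was HXB5/Ipcv at -1.72 and the highest HXB24/Ipcv at 0.67, and the members nearest to the space were HXB21/Ipcv at -1.06 and HXB2/Ipcv at 0.28. Among the other 14 inbred strains the means lay between -0.09 (SS/JrHsd) and 0.74 (SHR/OlaIpcv). Of their 42 animals, 3 were at -0.51 or less, as all animals of the lower RI strains were: 1 of F344/NCrl at -1.04, 1 of SHRSP/A3NCrl at -1.01 and 1 of SS/JrHsd at -0.54. The other animals of these 3 strains were above -0.16.

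**Figure D4:**
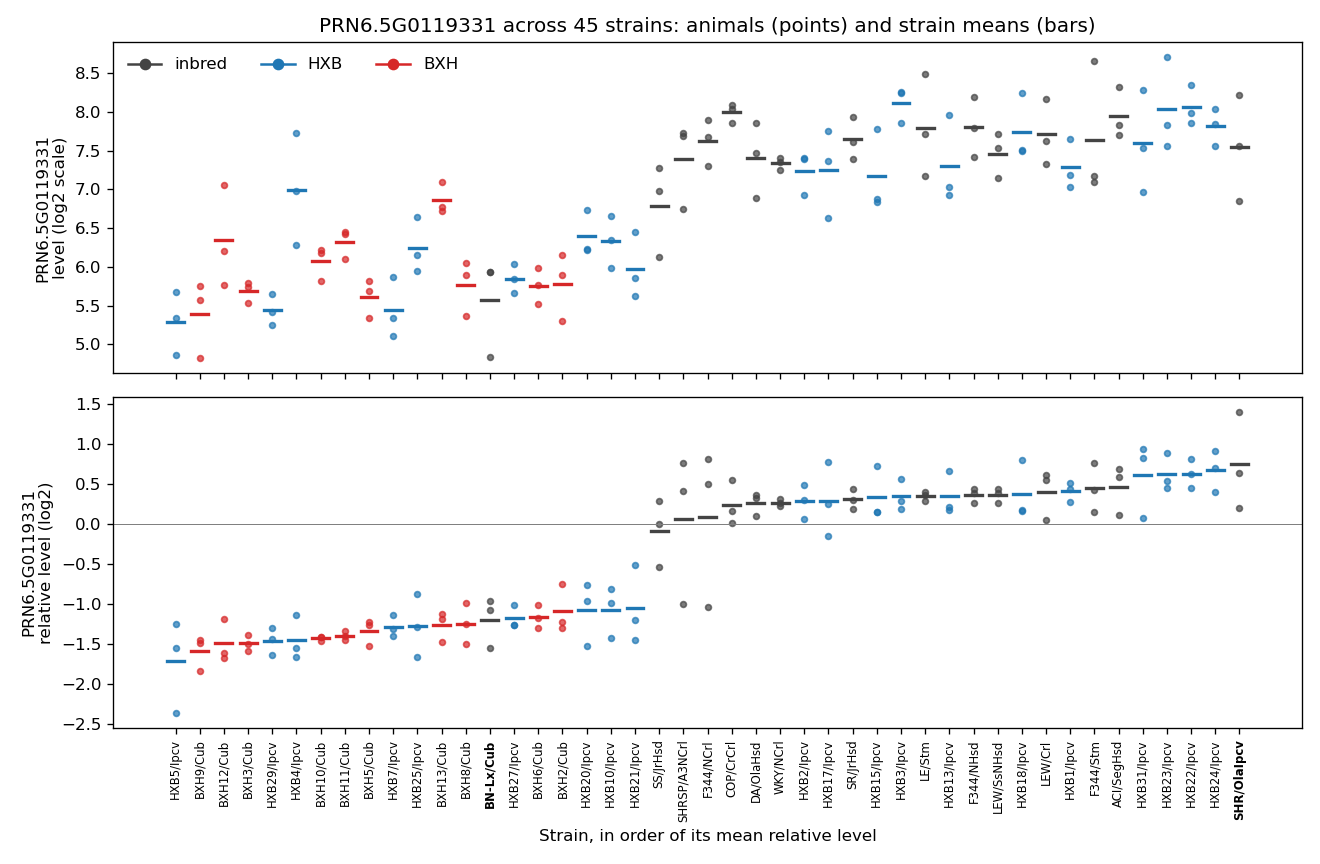
PRN6.5G0119331 in 45 strains (x axis, in order of the mean relative level): its level (upper y axis, log2 scale) and its level relative to 2 features that lack the block (lower y axis, log2). Points are animals, bars are strain means and colours mark the panel; BN-Lx/Cub, all 10 BXH and 9 HXB strains have relative means of -1.72 to -1.06, and the other strains lie between -0.09 and 0.74.

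The gene as a whole, with 1 cluster of strain means, was set beside this split. Across the 30 RI strains the level of PRN6.5G0119331 and that of the RefSeq gene had r = -0.19 (Spearman's rho -0.07), and for the relative level r was -0.39 (rho -0.26). PRN6.5G0119276, with the shared exons, had r = 0.83 with the RefSeq gene over the same strains. The strain means compared come largely from the same animals, and these correlations are descriptions.

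**Figure D5:**
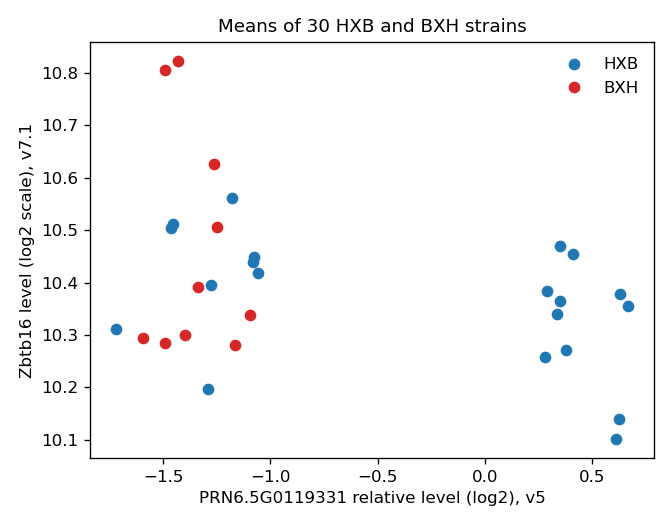
Relative level of PRN6.5G0119331 in the v5 table (x axis, log2) against the level of the Zbtb16 gene in the v7.1 table (y axis, log2 scale), each point the mean of 1 of 30 HXB (blue) or BXH (red) strains. The relative level leaves a space of 1.34 between 19 and 11 strains, while the gene level runs without a like space from 10.10 to 10.82.

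The v7.1 reconstruction, which has all 3 strains, gave no called difference at the block. PRN7.71G0138914 had no values in the table. PRN7.71G0138916, a 2-exon transcript, covers the block in an exon of 18501 bases, so most of that exon lies outside the 2964 bases of the block. It was at 6.85, 7.61 and 7.45 in BN-Lx/Cub, at 7.99, 7.61 and 7.87 in BN/NHsdMcwi and at 7.87, 7.79, 7.79 and 8.14 in SHR/OlaIpcv. BN-Lx/Cub had the lowest animals, but met BN/NHsdMcwi at 7.61. The differences were -0.52 ± 0.31 against BN/NHsdMcwi (adjusted p = 0.777) and -0.60 ± 0.29 against SHR/OlaIpcv (adjusted p = 0.416), neither called by limma. Across the 45 strains in both tables its means had r = 0.64 (rho 0.61) with those of PRN6.5G0119331. With the relative level of PRN6.5G0119331, on which the 2 groups of RI strains rest, r over the 30 HXB and BXH strains was 0.29 (rho 0.17), and the means of PRN7.71G0138916 in these strains formed 1 cluster.

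Of the 13 features named Zbtb16 with values in v7.1, 1 was called in BN-Lx/Cub minus BN/NHsdMcwi (0.0261% of all features), none in BN-Lx/Cub minus SHR/OlaIpcv (2.23%) and 1 in BN/NHsdMcwi minus SHR/OlaIpcv (4.53%). In the contrast with none called, 2 of the 13 were at an unadjusted p under 0.05, PRN7.71G0138877 and PRN7.71G0138916. PRN7.71G0138877, with 2 exons downstream of the block, was at 7.92 in BN-Lx/Cub and 6.40 in BN/NHsdMcwi. Their animals did not overlap, but the share of all v7.1 reconstructed features without overlap was not computed. PRN7.71G0138877 was called higher in BN-Lx/Cub by 1.52 ± 0.32 (limma adjusted p = 0.0315). That call was lost with batch as a covariate (difference 3.40, adjusted p = 1.00) and when any of BN-Lx/Cub animals 2 and 3 and BN/NHsdMcwi animals 1 and 2 was left out, at differences between 1.22 and 1.44. PRN7.71G0138870, which joins Zbtb16 and Nnmt, was at 10.86 in BN/NHsdMcwi and 9.90 in SHR/OlaIpcv, a difference of 0.97 ± 0.15 (limma adjusted p = 1.2e-06), with BN-Lx/Cub between them at 10.19. In HXB and BXH, 12 of the 13 features had a called strain effect, with 12.7% of all features called.

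The next question was whether molecular partners and relatives of Zbtb16 differed between the 3 strains. Of 22 genes for proteins known to bind PLZF, among them corepressors and histone deacetylases, all measured, none was called by limma in any of the 3 contrasts, in which 0.278%, 4.51% and 3.44% of all genes were called, shares that leave about none to 1 of a list of this size. At an unadjusted p under 0.05 were 9 of them in BN-Lx/Cub minus BN/NHsdMcwi, 3 in BN-Lx/Cub minus SHR/OlaIpcv and 2 in BN/NHsdMcwi minus SHR/OlaIpcv, beside 3851, 3997 and 2740 of all genes. The partner with the smallest p was Cul3, the ubiquitin ligase scaffold with which BTB proteins pair, 0.49 ± 0.18 higher in BN-Lx/Cub than in SHR/OlaIpcv (limma adjusted p = 0.0887). The median difference of the list was 0.03, 0.04 and 0.04 in BN-Lx/Cub minus BN/NHsdMcwi, BN-Lx/Cub minus SHR/OlaIpcv and BN/NHsdMcwi minus SHR/OlaIpcv, beside 0.01, -0.02 and -0.004 over all genes. Of 43 genes of the ZBTB family, 1 rose and 1 fell in BN-Lx/Cub against SHR/OlaIpcv, a share near the 4.51% of all genes, Zbtb38 by 0.27 ± 0.08 (limma adjusted p = 0.0167) and Zbtb43 by -0.22 ± 0.06 (adjusted p = 0.0231). Zbtb38 was also the 1 family member called in BN/NHsdMcwi minus SHR/OlaIpcv (0.27, limma adjusted p = 0.025, 3.44% of all genes called). None of the 43 was called in BN-Lx/Cub minus BN/NHsdMcwi (0.278% of all genes). At an unadjusted p under 0.05 were 9, 10 and 2 of them, in the order of contrasts given for the partners. Of all 20859 genes 3851, 3997 and 2740 were. Of 37 limb patterning genes 23 were measured in brain and none was called in a contrast, again beside 0.278%, 4.51% and 3.44% of all genes. At an unadjusted p under 0.05 were 2, 2 and 3 of the 23 in the same order of contrasts, beside the same counts of all genes. The smallest p was that of Etv4, a transcription factor downstream of FGF (-0.43 ± 0.12 in BN-Lx/Cub minus BN/NHsdMcwi, limma adjusted p = 0.107).

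Several genes induced by glucocorticoids, as Zbtb16 is, were called, and most were not. Of 23 such genes, all measured, 3 were called higher and 1 lower in BN-Lx/Cub than in SHR/OlaIpcv, 4 higher in BN/NHsdMcwi than in SHR/OlaIpcv, and 1 lower in BN-Lx/Cub than in BN/NHsdMcwi, beside 4.51%, 3.44% and 0.278% of all genes called in either direction. The metallothionein gene Mt2A was higher in BN/NHsdMcwi than in SHR/OlaIpcv by 0.96 ± 0.16 (limma adjusted p = 3.0e-06), and in BN-Lx/Cub than in SHR/OlaIpcv by 0.57 ± 0.16 (adjusted p = 0.017). Mertk, a receptor for the uptake of dead cells, was higher in BN/NHsdMcwi than in SHR/OlaIpcv by 0.37 ± 0.08 (limma adjusted p = 0.00195). Cdkn1a, an inhibitor of the cell cycle, was lower in BN-Lx/Cub than in BN/NHsdMcwi by 0.72 ± 0.13 (difference -0.72, limma adjusted p = 0.000782). Per1 was called in BN/NHsdMcwi minus SHR/OlaIpcv (0.73, limma adjusted p = 0.0178). Fkbp5, Tsc22d3 and Sgk1 were called in no contrast, at differences between -0.19 and 0.06. The median difference of the list was -0.09, -0.01 and 0.08 in BN-Lx/Cub minus BN/NHsdMcwi, BN-Lx/Cub minus SHR/OlaIpcv and BN/NHsdMcwi minus SHR/OlaIpcv. In HXB and BXH, 16 of the 23 had a called strain effect, beside 19.1% of all genes. Of the corticosteroid receptors neither was called in a contrast (1, 1 and none at an unadjusted p under 0.05), and Nr3c1, the glucocorticoid receptor, had a difference of 0.33 ± 0.14 in BN-Lx/Cub minus SHR/OlaIpcv (limma adjusted p = 0.152).

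Of 28 protein-coding genes with a symbol that start within 2 Mb of Zbtb16, 24 were measured. The 1 called in BN-Lx/Cub minus SHR/OlaIpcv was Nxpe2, a gene of low level (4.14), higher by 0.79 ± 0.19 (limma adjusted p = 0.00381), and its strain effect in HXB and BXH was called too (R2 0.790, adjusted p = 3.49e-10). With 1 of 24 called, the neighbours were near the 4.51% of all genes in this contrast, and likewise near the 3.44% in the next. Rexo2, a ribonuclease gene named after its values were seen, was the 1 called in BN/NHsdMcwi minus SHR/OlaIpcv, at -0.39 ± 0.10 (limma adjusted p = 0.00512). No neighbour was called by limma in BN-Lx/Cub minus BN/NHsdMcwi, where 0.278% of all genes were, and 6 were at an unadjusted p under 0.05, beside 3851 of the 20859 genes. Nnmt, which the reconstructions join to Zbtb16, had differences between -0.06 and 0.08 in the 3 contrasts and no called strain effect (limma adjusted p = 0.399).

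Markers of other cell types were called in few cases beside the erythroid genes above. The lists of 3 neuron, 3 microglia and 2 precursor markers are set apart because they held a called marker, while the 26 markers of the other lists held none. Of these 3 lists, 1 neuron marker was called in BN-Lx/Cub minus SHR/OlaIpcv (4.51% of all genes called). In BN/NHsdMcwi minus SHR/OlaIpcv 1 of each of these lists was called (3.44% of all genes), and in BN-Lx/Cub minus BN/NHsdMcwi none (0.278%). Snap25, a synaptic protein gene, was higher than in SHR/OlaIpcv in BN-Lx/Cub (0.54 ± 0.12, limma adjusted p = 0.0016) and in BN/NHsdMcwi (0.42, adjusted p = 0.0249). The other neuron markers differed by -0.09 and 0.07 in BN-Lx/Cub minus SHR/OlaIpcv. They differed by 0.01 and 0.15 in BN/NHsdMcwi minus SHR/OlaIpcv, and none of these was called. In BN/NHsdMcwi minus SHR/OlaIpcv the microglial gene P2ry12 was higher by 0.71 (limma adjusted p = 0.00814). The other microglia markers differed by 0.22 and 0.36 and were not called. The precursor gene Pdgfra differed by -0.33 in that contrast (limma adjusted p = 0.0129), while the other precursor marker differed by 0.37 and was not called. As a mean level, the precursor markers overlapped between these strains. None of the 26 markers of astrocytes, oligodendrocytes, endothelium, choroid plexus, olfactory bulb, hindbrain and liver was called by limma, and 1, 4 and 7 of them were at an unadjusted p under 0.05 in BN-Lx/Cub minus BN/NHsdMcwi, BN-Lx/Cub minus SHR/OlaIpcv and BN/NHsdMcwi minus SHR/OlaIpcv, beside 3851, 3997 and 2740 of the 20859 genes. The 1 in the first contrast was the astrocyte gene Gfap (-0.47, limma adjusted p = 0.137), and the lowest p in the last was that of the olfactory bulb gene S100a5 (-1.44, limma adjusted p = 0.056). As mean levels over a list, 2 of the 11 marker lists did not overlap between the animals of BN-Lx/Cub and BN/NHsdMcwi, 7 between BN-Lx/Cub and SHR/OlaIpcv, and 8 between BN/NHsdMcwi and SHR/OlaIpcv. Of all single genes, 18.9%, 38.9% and 40.5% did not overlap in the same contrasts. Liver markers were at 7.58 to 7.77 in BN-Lx/Cub, 8.04 to 8.18 in BN/NHsdMcwi and 8.26 to 8.52 in SHR/OlaIpcv. Choroid plexus markers were at 9.32 to 9.46, 9.01 to 9.20 and 9.47 to 9.99 in the same order, and these were the lists that separated BN-Lx/Cub from BN/NHsdMcwi. As means over a list, erythroid, endothelial and olfactory bulb markers were higher in SHR/OlaIpcv than in both other strains, and astrocyte and microglia markers lower. Single members did not all go that way. Of the astrocyte markers in BN-Lx/Cub minus SHR/OlaIpcv, Aqp4 differed by 0.47, Slc1a3 by 0.05 and Gfap by -0.07. A microglia marker differed by -0.05 in that contrast, and an endothelial marker by 0.05 in BN/NHsdMcwi minus SHR/OlaIpcv. The part of these differences in the Zbtb16 levels was not tested.

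Over the 74 strain means, Zbtb16 was compared with 4 genes that glucocorticoids induce. The permutation test shuffles these means as if they were exchangeable. Strains of a panel and substrains are related and partly share batches, so its p-values may be too small. With Per1, a clock gene, r was 0.53 (rho 0.47, permutation test, adjusted p over the 4 genes 4e-05 for r and 8e-05 for rho). It was 0.51 without BXH10/Cub and BXH12/Cub, the strains farthest from the median of Zbtb16, and 0.78 with batch as a covariate. Within panels r with Per1 was 0.45 in HXB, 0.69 in BXH, 0.47 in LEXF, 0.69 in the inbred strains and -0.12 in FXLE. With Fkbp5, a co-chaperone of the glucocorticoid receptor, r was 0.39 (rho 0.38, permutation test, adjusted p = 0.00096 for r and 0.00172 for rho) and 0.32 without these 2 strains. That relation did not hold with batch as a covariate, where r was -0.13, and within panels it ran from -0.73 in FXLE to 0.88 in BXH. With Tsc22d3 (r = 0.00, rho -0.07) and Sgk1 (r = 0.14, rho -0.02) no relation passed (permutation test, adjusted p of 0.985 and 0.296 for r, 0.704 and 0.876 for rho). Without the same 2 strains r was -0.11 and 0.05. Within panels r ran from -0.72 in FXLE to 0.68 in BXH for Tsc22d3, and from -0.81 in FXLE to 0.56 in BXH for Sgk1. With batch as a covariate r became -0.74 and -0.53, and both passed in that direction (permutation test, adjusted p = 1.33e-05 each). In that fit the later batches are linked to the earlier ones only through SHR/OlaIpcv animals. An error in that link moves all later strains together, so the strain means are not exchangeable as the permutation assumes. These p-values are thus unreliable, and the r of 0.78 for Per1 and -0.13 for Fkbp5 have the same limit.

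Among the 9942 genes with a symbol and a mean above the median, those whose strain means were most like Zbtb16 over all 74 strains were Zfp831 (r = 0.74), Rin1 (0.74), Nuak1 (0.71), Rnf150 (0.70) and Flrt1 (0.70). The lowest r was that of Idh1 (-0.68), Insig1 (-0.67) and Hmgcs1 (-0.63), the last a gene of sterol synthesis. Over the 30 HXB and BXH strains the most like were Ankrd33b (0.78), Nt5dc3 (0.77), Csmd1 (0.76), the clock gene Per2 (0.76) and Ripor2 (0.75), and the least like were Atp5pb (-0.75), Hmgcs1 (-0.71) and Ugt8 (-0.70), an enzyme of myelin lipid synthesis. Strain means share library preparation and batch, and these values are descriptions.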

How the data were processed

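RNA of whole brain was sequenced from stranded libraries. For v5, the authors trimmed reads with Cutadapt 1.9.1, removed rRNA with Bowtie2 2.3.4.3 and aligned to strain-specific rn6, containing only SNPs, with HISAT2 2.1.0. They assembled with StringTie 1.3.5 guided by Ensembl, quantified with RSEM, removed 1 factor of unwanted variation and applied the regularized log of DESeq2. The methods thus describe deposited values on a log2 scale. The deposited v5 reconstructed gene table reaches a value of 118, so its columns were recorded as a score, and differences in it are read on the log2 scale of the methods. Later samples' processing notes name Bowtie2 2.4.5, HISAT2 2.2.1, StringTie 2.2.1 and RSEM 1.3.3; how v6 and v7.1 were scaled and on which build is not given in the sources used here. A log2 scale was assumed for them because the bulk of their values covers the range of v5; 13 values of the v7.1 gene table exceed 25, up to 36.9, and transcripts reach 64.7, v7.1 reconstructed genes 72.6 and v6 genes 29.9, which log2 counts would not, though no feature's mean exceeds 25. Exon positions are those of the deposited annotations. Columns of per-sample values without a mapped sample or strain numbered 0 in the tables used.

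Libraries with the same strain and replicate number, read as technical repeats, were averaged to 1 animal; batch is the labels' batch value, which in some samples differs from the title. The 73 spike-ins were left out. Contrasts and strain effects used limma 3.58.1 (R 4.3.3) on all features and animals of a table, with Benjamini-Hochberg adjustment over all features at 5%; clusters used mclust 6.1.1 (1 to 3, equal variance, best BIC). Scripts were tested on simulated data. Permutation tests were two-sided, with 100000 resamples where not exact. Nothing states that animals came from separate litters, so p-values measure the spread between these animals.

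The gene, the contrasts and the lists were chosen with earlier results of these data known. Genes named are Zbtb16 with its transcripts and features, in each list up to 3 called members by adjusted p (otherwise the one with the smallest p), Fkbp5, Tsc22d3, Sgk1 and Per1, neighbours called in BN-Lx/Cub minus SHR/OlaIpcv, and the genes of highest and lowest r. The relative level, the block and the v7.1 features were added after seeing the data. Gene neighbours were taken from the RefSeq table of GRCr8. No sequence of Zbtb16 was at hand, and none is shown.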

Additional observations from a re-analysis of the deposited data

Results flagged for a closer look

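Of 64 groups of 4 to 10 values that were checked for a value far from the rest, 3 held one, and chance alone gives about 1 in 20. Among the 7 FXLE strains, the Zbtb16 gene was lowest in FXLE13/Stm, at 10.19, a single value from 1 animal with 1 library, the next strain being at 10.42. The transcript XM_017595705.2 was lowest in FXLE14/Stm, at 6.62, with the next strain at 8.51. Among the 10 BXH strains, the v5 feature PRN6.5G0119327 was highest in BXH13/Cub, at 5.45, with the next strain at 4.70.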

How the results depend on the processing

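The difference of BN/NHsdMcwi minus SHR/OlaIpcv in Zbtb16 stayed positive under all 11 other settings, between 0.53 and 0.97, and was called in 10 of them; with only the 3 strains in the fit it was 0.59 and not called (limma adjusted p = 0.0845), with fewer animals behind the spread. Leaving out 1 animal gave 0.54 to 0.64. BN-Lx/Cub minus BN/NHsdMcwi ran from -0.67 to -0.28 and was called once, with batch as a covariate (-0.56), and from -0.41 to -0.18 with 1 animal left out. BN-Lx/Cub minus SHR/OlaIpcv ran from 0.04 to 0.32 over 12 settings, from 0.18 to 0.41 with 1 animal left out, and was called once, with libraries as samples and animal as a random block (0.28, limma adjusted p = 0.00463). Deviations of same-numbered BN-Lx/Cub and BN/NHsdMcwi animals correlated at 0.46, 0.34 and 0.02, and number 1 of SHR/OlaIpcv at -0.09 and -0.13 with the others. Pairs of unlike number were not compared, so these values do not show whether the replicate numbers pair the animals. With the number as a block the 3 differences were -0.31, 0.22 and 0.53 (limma adjusted p of 0.181, 0.531 and 0.0289), and R2 in HXB and BXH was 0.667; the block changed the call of the inbred strains' effect (R2 0.530) and no other call of a gene contrast, and it turned XM_017595707.2 in BN-Lx/Cub minus SHR/OlaIpcv to -0.40. The strain effect in inbred strains, at R2 0.555, was not called with batch as a covariate (0.532), in the v6 table of Ensembl genes (0.501), the v5 table of Ensembl genes (0.529) or the v7.1 table of reconstructed genes (0.602), nor without replicate 1, 2 or 3 (0.603 to 0.664). In HXB and BXH R2 was 0.507 in the v6 and 0.539 in the v5 table of Ensembl genes, and 0.690 to 0.818 without 1 of the replicates. The latter are not comparable with R2 over all animals, because fewer animals per strain raise it. HXB minus BXH was -0.18 and past 5% with batch as a covariate, by a permutation p-value that is unreliable because batch moved with panel. With batch as a covariate 1 of the 9 transcript contrasts was called, NM_001013181.1 in BN-Lx/Cub minus BN/NHsdMcwi (-4.66, limma adjusted p = 0.00345), while NM_001013181.1 in BN-Lx/Cub minus SHR/OlaIpcv turned to -3.49 and the v5 feature PRN6.5G0119330 to -0.12. The share of all transcripts called in that fit was not computed. With 1 animal left out, the smaller transcript differences turned sign: NM_001013181.1 in BN-Lx/Cub minus SHR/OlaIpcv ran from -0.43 to 0.70, XM_017595705.2 from -1.87 to 2.66 in BN-Lx/Cub minus BN/NHsdMcwi, from -1.80 to 0.18 in BN-Lx/Cub minus SHR/OlaIpcv and from -3.57 to 0.96 in BN/NHsdMcwi minus SHR/OlaIpcv, and XM_017595707.2 from -0.18 to 0.67 in BN-Lx/Cub minus SHR/OlaIpcv; PRN6.5G0119276 ran from -0.00306 to 0.32. The count of called v5 features stayed at 1 in all 10 alternatives. Features with a strain effect numbered 12, and 5 to 8 without 1 of the replicates (5 without replicate 2). By alternatives chosen after seeing the data, the relative level of PRN6.5G0119331 had 2 clusters with each reference feature alone or without any 1 of the replicates, and HXB minus BXH on it was 0.98 to 1.04; its level without a reference gave 1 cluster when a further cluster had to improve the BIC by more than 6. Correlations turned sign with batch as a covariate for Fkbp5 (-0.13), Tsc22d3 (-0.74) and Sgk1 (-0.53). The last 2 were past 5%, in a fit that links later to earlier batches only through SHR/OlaIpcv. For Tsc22d3 r was -0.00208 with libraries centred on their median and 0.29 and past 5% in the v6 table of Ensembl genes. Over all genes, the calls in BN-Lx/Cub minus BN/NHsdMcwi, BN-Lx/Cub minus SHR/OlaIpcv and BN/NHsdMcwi minus SHR/OlaIpcv numbered 58, 940 and 717; they were 8328, 6473 and 371 with batch as a covariate, 66, 410 and 457 with the replicate block, 26, 348 and 408 with only the 3 strains, 53, 5621 and 2717 with libraries as samples, 35, 548 and 755 with 1 library per animal, 24, 469 and 223 among genes above the median mean and 21, 408 and 886 in v6. Where no construction is named, the cause was not tested.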
